A study of Rattus norvegicus with 6 samples.

Results

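Slc14a1 and Slc14a2 are the urea transporter genes of the rat kidney, and their transcripts were compared between 2 cell fractions of the inner medulla. The members were the probe sets whose single gene symbol in the platform annotation was Slc14a1 or Slc14a2, 2 and 5 respectively, which made 7 of the 31099 probe sets on the array. All 7 were tested, since no filter on low values was applied. RNA came from male Sprague-Dawley rats, 7 in the study, each given 1 mg of the loop diuretic furosemide by intraperitoneal injection 30 min before decapitation. Collagenase B and hyaluronidase then acted on the excised inner medulla for 75 min at 37 °C. The IMCD fraction, 3 arrays, was enriched in inner medullary collecting duct cells by low-speed centrifugation, and the nonIMCD fraction, 3 arrays, was spun down from the supernatant of that step. All 6 fractions therefore carried the furosemide and the digestion, and neither fraction was a purified cell type. The isolation was done 3 times, so the 6 arrays came from 3 pairs of fractions, but which arrays form a pair was not given in the sources used here. Nor was the number of rats behind each array, and the p-values measure the spread between isolations. By the labels 5 arrays came from rats aged 10 weeks and IMCD replicate 1 from rats aged 6 weeks, although 1 nonIMCD array must come from the same isolation as IMCD replicate 1, so this label is in doubt.

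Urea transporters let urea cross cell membranes down its gradient and so hold urea in the inner medulla, where it helps to concentrate the urine. Slc14a2 encodes the UT-A proteins. Long and short forms arise from different starts and splice patterns: the vasopressin-regulated forms of the collecting duct begin at an upstream start, and the form of the thin descending limb of Henle begins at an internal start. Slc14a1 encodes UT-B, the transporter of the descending vasa recta, the vessels that supply the inner medulla, and of red blood cells. Which transcript form each probe set detects was not determined here, because probe sequences were not used. By the array maker's naming, a suffix of a_at marks a probe set that matches several transcripts of a gene, and s_at one that can match several transcripts, also of other genes. The other probe sets end in at alone.

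The RefSeq starts of these genes are shown because different starts are known from different cells. Both fractions are mixtures of those cells, in unequal parts by the markers given below. RefSeq on GRCr8 listed 2 starts for Slc14a2 and 1 for Slc14a1, all on the minus strand of chromosome 18. The Slc14a2 starts lay 393 kb apart, and the Slc14a1 start lay a further 56.9 kb beyond the internal one. Each window runs 5′ to 3′ from 250 bases before to 50 bases after the start. Capitals mark matches, on either strand, to any of the motifs searched: TATAAA (the core of the TATA box), TGACG (part of the cAMP response element), TGGAAA (the core of the tonicity-responsive element) and CCAAT (the CCAAT box).
Slc14a2 upstream start, chr18:74314497-74314796, minus strand: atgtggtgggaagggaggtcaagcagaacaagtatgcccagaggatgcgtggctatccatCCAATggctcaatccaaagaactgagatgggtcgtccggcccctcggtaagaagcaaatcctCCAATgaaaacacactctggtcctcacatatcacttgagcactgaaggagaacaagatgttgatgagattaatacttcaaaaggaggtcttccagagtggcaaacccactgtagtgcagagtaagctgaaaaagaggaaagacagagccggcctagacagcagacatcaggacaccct
Slc14a2 internal start, chr18:73921535-73921834, minus strand: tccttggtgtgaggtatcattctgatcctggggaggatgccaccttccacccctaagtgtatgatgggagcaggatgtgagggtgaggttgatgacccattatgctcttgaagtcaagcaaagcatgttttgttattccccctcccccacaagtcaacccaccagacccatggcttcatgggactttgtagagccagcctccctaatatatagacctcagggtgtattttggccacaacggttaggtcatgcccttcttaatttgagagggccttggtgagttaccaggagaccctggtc
Slc14a1 start, chr18:73864594-73864893, minus strand: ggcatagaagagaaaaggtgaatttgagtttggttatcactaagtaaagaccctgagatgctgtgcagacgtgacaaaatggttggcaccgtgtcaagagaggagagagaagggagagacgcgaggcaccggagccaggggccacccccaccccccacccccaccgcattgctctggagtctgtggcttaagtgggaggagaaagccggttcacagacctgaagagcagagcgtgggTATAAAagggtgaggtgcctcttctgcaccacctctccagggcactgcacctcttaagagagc

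The upstream Slc14a2 window held 2 CCAAT matches, the Slc14a1 window held 1 TATAAA match, and the internal Slc14a2 window held none of the 4 motifs. Of 33469 rat windows of this length, 37.5% held CCAAT, 14.2% held TATAAA, 22.7% held TGGAAA and 21.2% held TGACG. GC content was 49% at the upstream Slc14a2 start, 50.7% at the internal one and 55.7% at the Slc14a1 start. A match is only a run of letters, and the arrays did not measure which start was used.

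Deposited intensities had the same trimmed mean on each array (1000.3 to 1000.4), and the median intensity was 270.3 to 273.4 on IMCD arrays and 330.1 to 341.4 on nonIMCD arrays. Pearson's r of log2 values was 0.956 to 0.966 within a fraction and 0.901 to 0.910 across fractions. The 3′ probe sets of Actb, Gapdh and hexokinase exceeded the 5′ ones by 0.69 ± 0.03 on the log2 scale on IMCD arrays (SD, n = 3). On nonIMCD arrays the excess was 1.35 ± 0.14 (SD, n = 3), so this measure of transcript integrity moved with every difference given here. Its part in those differences was not tested. Hybridisation controls were brightest on nonIMCD replicate 3 (mean log2 of 13.17, against 12.46 to 12.78 on the other arrays). A bacterial trp transcript, taken as a dim reference, reached at most 78.4 on any array.

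Slc14a1 was lower in the IMCD fraction in both of its probe sets. Probe set 1386679_at read 1200 on IMCD replicate 1, 713 on replicate 2 and 1074 on replicate 3. On the nonIMCD arrays it read 14440, 15775 and 17807. The fractions did not overlap, and the dimmest nonIMCD array was 12 times as bright as the brightest IMCD array. The difference, IMCD minus nonIMCD, was -4.01 ± 0.23 on the scale of log2(intensity + 16) (SE, limma adjusted p = 0.000399), a 16.1-fold lower signal in IMCD. The 95% interval ran from -4.57 to -3.45. Only 0.525% of the 31042 tested probe sets had a more negative difference.

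Probe set 1369857_a_at gave Slc14a1 a smaller difference with more spread. It read 593, 318 and 486 on IMCD replicates 1 to 3 and 1492, 2170 and 3655 on nonIMCD replicates 1 to 3. Again no IMCD array reached a nonIMCD array, although nonIMCD replicate 3 was far brighter than nonIMCD replicate 1. The difference was -2.30 ± 0.39 (SE, limma adjusted p = 0.0111), a 4.91-fold lower signal in IMCD, with a 95% interval from -3.25 to -1.34. In both probe sets IMCD replicate 2 was the dimmest array and IMCD replicate 1 the brightest of its fraction. Both Slc14a1 probe sets were thus called lower, where 13.4% of all tested probe sets were called lower, and both kept their arrays apart, as 24.9% of all did in that direction.

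**Figure D1:**
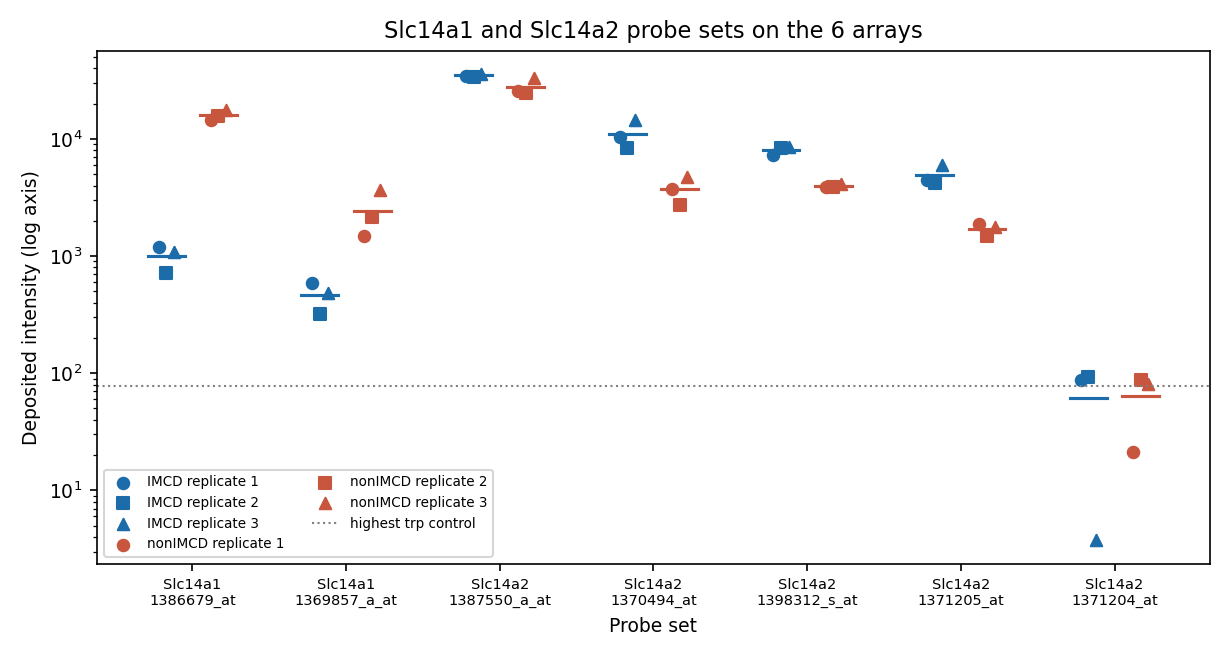
Deposited intensity (log axis) of the 7 probe sets on each of the 6 arrays; blue points are IMCD arrays, red points nonIMCD arrays, short lines the mean of 3 arrays, and the dotted line the highest trp control (78.4). Slc14a1 sits higher in nonIMCD in both probe sets, 4 probe sets of Slc14a2 sit higher in IMCD, and 1371204_at scatters around the dotted line.

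Slc14a2 was higher in IMCD in 3 of its 5 probe sets by limma, and 0 were lower, also at an unadjusted p under 0.05. Across all tested probe sets 8.58% were called higher. The 2 that did not pass were the brightest and the dimmest of the gene. Arrays did not overlap in 4 of the 5, against 17.3% of all tested probe sets in that direction.

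The largest Slc14a2 difference was that of 1370494_at. It read 10437, 8375 and 14484 on IMCD replicates 1 to 3, and 3739, 2751 and 4705 on nonIMCD replicates 1 to 3. Every IMCD array was at least 1.78 times as bright as any nonIMCD array. The difference was 1.57 ± 0.29 (SE, limma adjusted p = 0.0142), or 2.96-fold, with a 95% interval from 0.86 to 2.27.

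Probe set 1371205_at read 4493, 4230 and 6005 in IMCD and 1866, 1497 and 1759 in nonIMCD. IMCD replicate 3 was again the brightest and replicate 2 the dimmest of its fraction, the order also seen in 1370494_at. The difference was 1.504 ± 0.19 (SE, limma adjusted p = 0.00367), or 2.84-fold. In probe set 1398312_s_at the readings were 7256, 8431 and 8614 in IMCD and 3855, 3907 and 4161 in nonIMCD, the narrowest spread among the called members. Its difference was 1.02 ± 0.13 (SE, limma adjusted p = 0.00403), or 2.03-fold.

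The brightest member, 1387550_a_at, read 34563, 34068 and 35783 in IMCD. In nonIMCD it read 25726, 24869 and 33107. The fractions did not overlap, but nonIMCD replicate 3, the array with the brightest hybridisation controls, came within 1.03-fold of the dimmest IMCD array. The difference of 0.33 ± 0.15 did not pass (SE, limma adjusted p = 0.191), and its 95% interval ran from -0.05 to 0.71. With each array centred on its median the value was 0.62 and passed (adjusted p = 0.0299). After quantile normalization it was 0.40 (adjusted p = 0.0816), and without nonIMCD replicate 3 it was 0.46 (adjusted p = 0.0738). This probe set lay between the 99.3 and 99.7 percentiles of brightness on all 6 arrays.

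Probe set 1371204_at stayed near the dim reference. It read 87.9, 93.2 and 3.75 in IMCD and 21.1, 87.8 and 81.3 in nonIMCD, around the highest trp control. Its difference of -0.25 ± 0.79 (SE, limma adjusted p = 0.857) has a 95% interval from -2.18 to 1.69 and changes sign under median centring (0.04), so no fold is given. The annotation assigns it to the same GenBank record as 1371205_at, which was called.

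**Figure D2:**
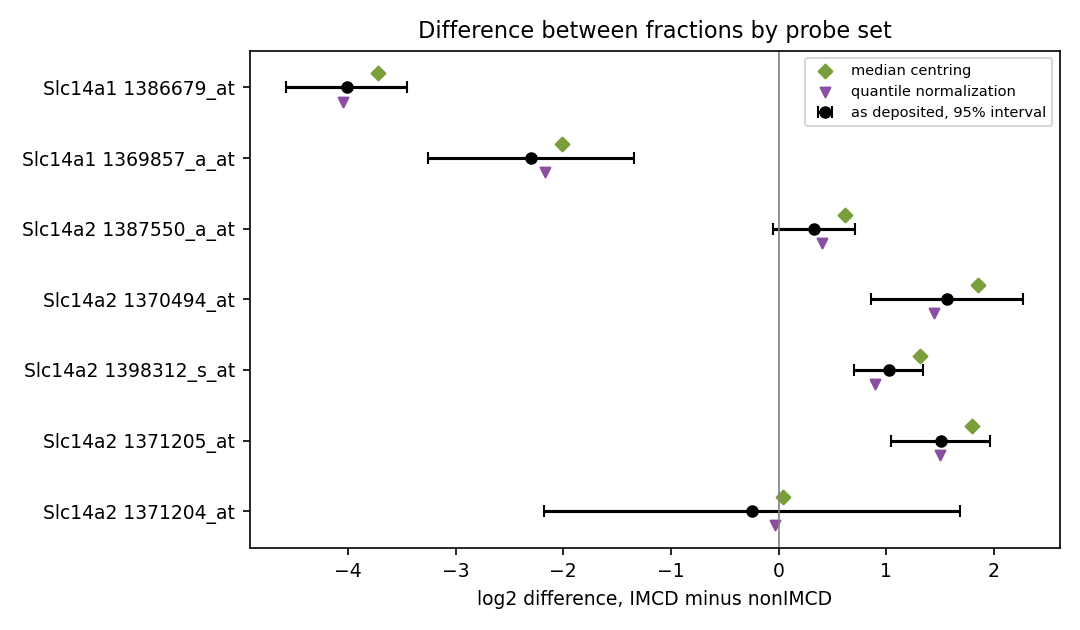
Log2 difference, IMCD minus nonIMCD, of each probe set (x axis) with its 95% interval from limma, and the same difference with arrays centred on their medians or quantile normalized. The 2 Slc14a1 intervals lie below 0, 3 Slc14a2 intervals lie above 0, and those of 1387550_a_at and 1371204_at include 0. No called probe set changes sign with the scaling.

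Scaling set part of these values. The median difference over all tested probe sets was -0.10 as deposited, 0.19 with median centring and 0.06 after quantile normalization. The 5 called members kept their direction and their call in all 13 alternative fits, with adjusted p from 1.04e-07 to 0.0493. The narrowest margin was that of 1370494_at without nonIMCD replicate 1 (1.58, adjusted p = 0.0493).

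Whether the probe sets of 1 gene differed from each other in their difference was tested on their within-array log2 ratios, in which the scaling of an array largely cancels. The 2 probe sets are not comparable in level, so only the change of the ratio between fractions is read. For 1371205_at over 1387550_a_at the log2 ratio was -2.94, -3.00 and -2.57 on IMCD replicates 1 to 3 and -3.77, -4.04 and -4.22 on nonIMCD replicates 1 to 3. The fractions did not overlap, and the ratio was 2.26-fold larger in IMCD (1.17 ± 0.22, SE), although limma's adjusted p over 9597 pairs of probe sets was 0.0755. For 1370494_at over 1387550_a_at the ratio differed by 1.23 ± 0.25 (SE, adjusted p = 0.0933 by limma), and for 1387550_a_at over 1398312_s_at it was -0.69 ± 0.18 (SE, adjusted p = 0.135 by limma).

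The probe sets with the 2 largest differences were not told apart. Between 1370494_at and 1371205_at the change of the ratio was 0.06 ± 0.22 (SE, limma adjusted p = 0.901), with a 95% interval from -0.47 to 0.59. Against 1398312_s_at, 1370494_at changed by 0.54 (adjusted p = 0.349 by limma) and 1371205_at by 0.48 (adjusted p = 0.263 by limma). In the fit over all pairs, 0 of the 6 pairs of the 4 bright Slc14a2 probe sets passed by limma, and 3 had an unadjusted p under 0.05, as did 20.4% of all pairs. Ratios of 4 of the 6 did not overlap between fractions, against 28.9% of all 9597 pairs, of which 0.792% passed. The 6 pairs share their 4 probe sets and are not independent, and most of those without overlap include 1387550_a_at. An exact two-sided permutation test over the 6 arrays cannot go below p = 0.1 here. Every pair without overlap must reach that value, so for these 4 pairs the test adds nothing.

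For the Slc14a1 probe sets the log2 ratio of 1369857_a_at over 1386679_at was -0.997, -1.13 and -1.12 in IMCD and -3.26, -2.85 and -2.28 in nonIMCD. It differed by 1.72 ± 0.28 (SE, adjusted p = 0.0575 by limma), without overlap. The adjusted p of these ratios moved with the pairs included. With probe sets whose log2 values averaged 7 or less left out, it was 0.0139 for this Slc14a1 pair, 0.0288 for 1370494_at over 1387550_a_at and 0.0208 for 1371205_at over 1387550_a_at, and 407 of 6024 pairs passed.

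**Figure D3:**
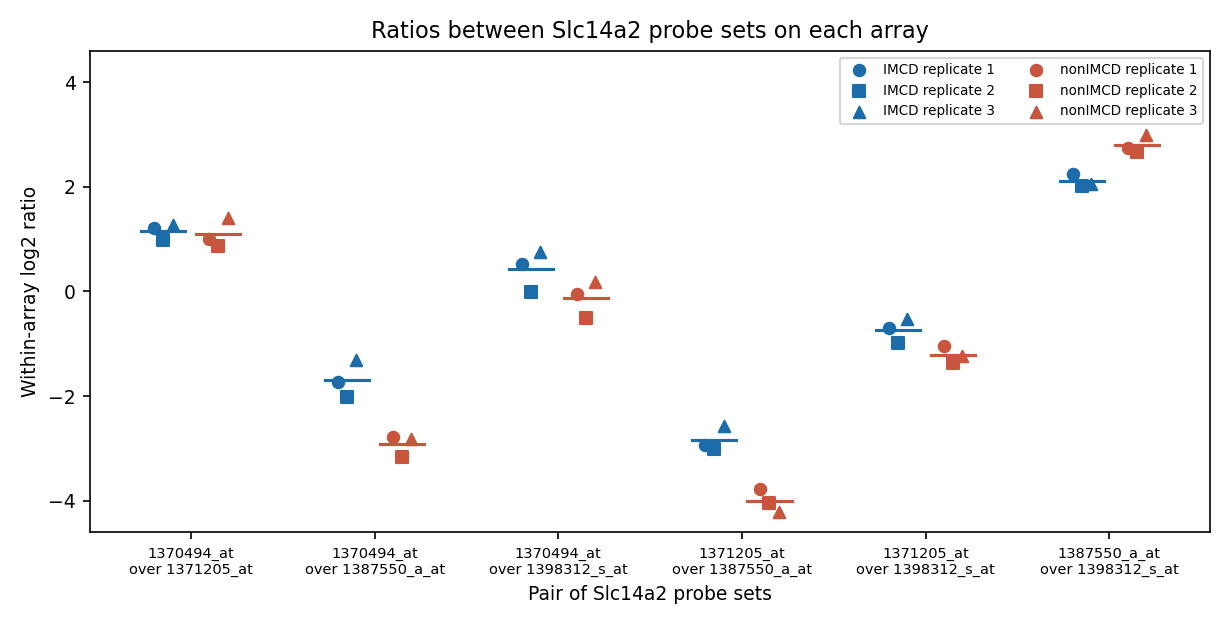
Within-array log2 ratio (y axis) for each of the 6 pairs of the 4 bright Slc14a2 probe sets, with IMCD arrays in blue, nonIMCD arrays in red and lines at the mean of 3 arrays. The ratios of 1370494_at and 1371205_at over 1387550_a_at are higher on every IMCD array than on any nonIMCD array, and those of 1370494_at over 1371205_at overlap; only the change between fractions is comparable across pairs.

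Slc14a1 is known from vessel endothelium. Of 13 measured endothelial markers 13 were lower in IMCD and 0 higher, with a median of -2.0, against 15.7% of all genes called lower and a median of -0.09 over all genes. Folds ranged from 2.53 for Plvap, a protein of fenestrated endothelium, to 17.9 for Vwf, von Willebrand factor. Slc14a1 in 1386679_at (16.1-fold) exceeded 12 of these 13, and in 1369857_a_at (4.91-fold) it exceeded 9. The summed endothelial intensity was 16640 to 20594 in IMCD and 71687 to 76462 in nonIMCD. Emcn, Plvap and Tek weighed most in the IMCD sum, with means of 4791, 4746 and 3439. In IMCD 0 of the 13 lay at or under the highest trp control. The IMCD fraction thus kept endothelial signal. Its share in the remaining Slc14a1 signal was not tested. In such mixed samples, fewer cells of a type and less RNA per cell cannot be told apart.

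Among 9 genes related to the vasa recta the median was -2.37, with 7 called lower, 1 called higher and 1 not past the threshold. Over all genes 15.7% were called lower and 10.0% higher. The water channel Aqp1, which descending vasa recta and thin descending limbs share, was 11.2-fold lower (-3.48 ± 0.24, SE, limma adjusted p = 0.000584), the endothelial nitric oxide synthase Nos3 differed by -2.70 and the connexin Gja4 by -2.54. The higher gene was caveolin Cav1 (0.78, adjusted p = 0.0248 by limma), a call lost without any IMCD array or without nonIMCD replicate 1 or 2 (adjusted p = 0.0582 to 0.0799).

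Red cells also carry UT-B, and 3 of 8 erythroid markers were lower in IMCD, 0 higher and 5 not past the threshold, with a median of -1.04 (15.7% of all genes were called lower). Hemoglobin beta, Hbb, in a probe set whose x_at suffix marks probes shared with other sequences, read 650, 2282 and 2848 on IMCD replicates 1 to 3 and 28646, 63063 and 80473 on nonIMCD replicates 1 to 3. Hbb and both Slc14a1 probe sets were lowest on replicate 1 and highest on replicate 3 of the nonIMCD fraction, whereas IMCD replicate 1 had the lowest Hbb and the highest Slc14a1. The heme enzyme Alas2 differed by -4.10. The globin chaperone Ahsp averaged 23.0 in IMCD, under the highest trp control, and 624 in nonIMCD. Slc4a1, the anion exchanger of red cells and of collecting duct intercalated cells, did not pass, with a mean of 5101 in IMCD and 2758 in nonIMCD (0.91, adjusted p = 0.165 by limma). Leaving out IMCD replicate 1, IMCD replicate 2 or nonIMCD replicate 2 ended the call of Ahsp, at adjusted p = 0.0645, 0.0588 and 0.0605. The summed erythroid signal was 5792 to 10279 in IMCD and 31527 to 91577 in nonIMCD. Slc4a1 made up 56.7 to 83.3% of the IMCD sum, and without it the sums were 965 to 3316 in IMCD and 29938 to 87889 in nonIMCD. In IMCD 4 of the 8 markers lay at or under the highest trp control, against 1 in nonIMCD. The part of red cell RNA in the Slc14a1 difference was not tested.

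Markers of principal cells of the collecting duct were higher in IMCD for 12 of 13 genes, 0 were lower and 1 did not pass. The median was 1.39 (10.0% of all genes were called higher). The upstream Slc14a2 start is known from the collecting duct, but this list does not single out the cells that use it. Folds ran from 1.22 for the apical water channel Aqp2 to 5.90 for the transcription factor Elf5. Scnn1g, a sodium channel subunit, and Gata3, a transcription factor, differed by 2.48 and 2.15. Of the 13, 6 had a larger fold than 1370494_at, 11 a larger one than 1398312_s_at and 12 a larger one than 1387550_a_at. The summed marker intensity was 238828 to 256964 in IMCD and 113513 to 147789 in nonIMCD. Very bright genes such as Aqp2 (means of 52574 in IMCD and 43299 in nonIMCD) weigh most in these sums, whereas Elf5 averaged 7041 and 1187. In nonIMCD 0 of the 13 lay at or under the highest trp control, so that fraction held collecting duct RNA as well. Fxyd4 lost its call without nonIMCD replicate 1 (adjusted p = 0.0515), and Scnn1a without IMCD replicate 2 (0.0509) or 3 (0.0531).

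Thin limb of Henle markers stand for the cells in which the internal Slc14a2 start is known to be used. In IMCD 5 of 6 were called lower, 0 higher and 1 not past the threshold (15.7% of all genes were called lower). The median was -2.64. Bst1, a cell surface ADP-ribosyl cyclase, differed by -4.39 ± 0.16 (SE, limma adjusted p = 0.000204). Epha7, an ephrin receptor, averaged 57.9 in IMCD, under the highest trp control, and 675 in nonIMCD. The summed thin limb signal was 55777 to 62782 in IMCD and 142570 to 168138 in nonIMCD. The chaperone Cryab, the gene not past the threshold (-0.50), made up 69.6 to 75.6% of the IMCD sum, and without it the sums were 13601 to 17662 in IMCD and 88881 to 102278 in nonIMCD. No Slc14a2 probe set was lower by limma, and 1387550_a_at had the smallest difference of the 4 bright ones (0.33). Its suffix marks several transcripts. That of 1398312_s_at also allows several, and this probe set was called higher (1.02, limma adjusted p = 0.00403). The part of thin limb transcripts in the nonIMCD signal of Slc14a2 was not tested. Slc4a11 lost its call without any IMCD array or without nonIMCD replicate 2 (adjusted p = 0.0516 to 0.0665).

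**Figure D4:**
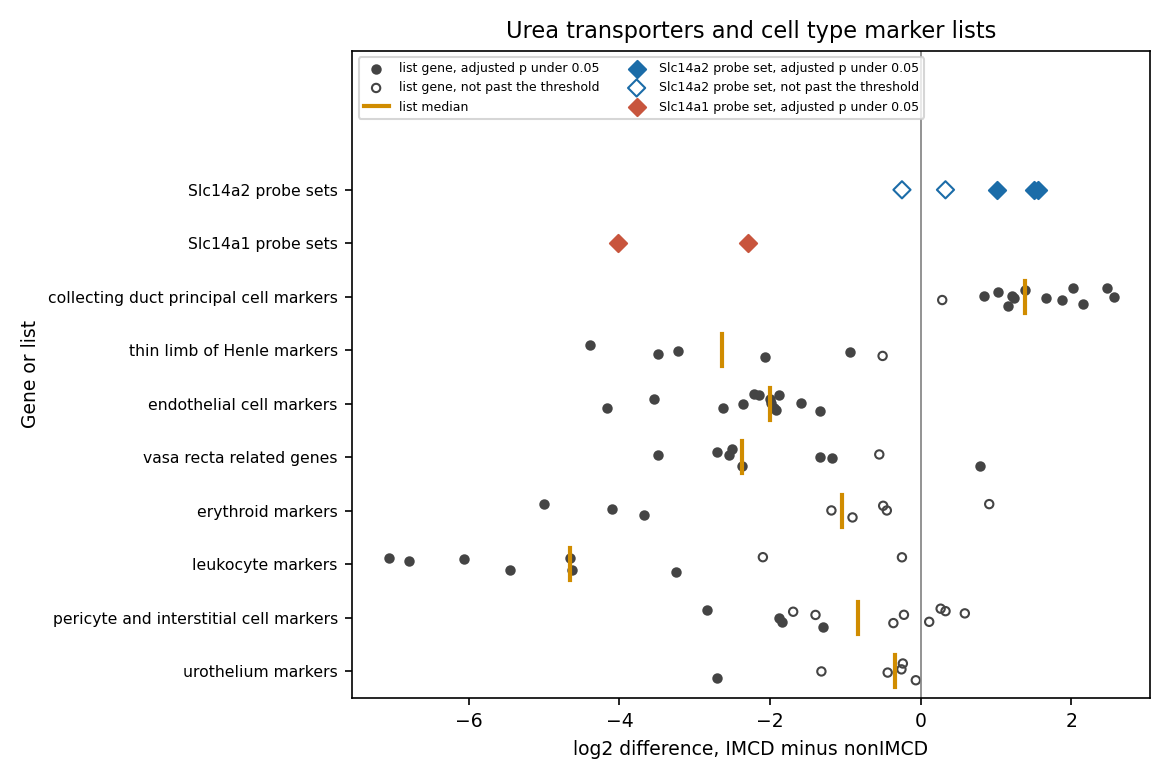
Log2 difference, IMCD minus nonIMCD (x axis), of the Slc14a2 and Slc14a1 probe sets (diamonds) and of each gene of 8 marker lists by its brightest probe set (circles; filled where limma's adjusted p is under 0.05, bars at list medians). The called Slc14a2 probe sets fall within the range of principal cell markers. Both Slc14a1 probe sets fall within the range of endothelial markers, but also within those of thin limb, erythroid and leukocyte markers. Slc14a1 in 1386679_at (-4.01) lies below all vasa recta related genes (lowest Aqp1, -3.48).

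Leukocyte markers were lower in IMCD for 7 of 9 genes, with 0 higher and a median of -4.65 (15.7% of all genes were called lower). In IMCD 4 of the 9 lay at or under the highest trp control, where exact differences are not usable. The complement subunit C1qb averaged 51.4 in IMCD and 7841 in nonIMCD, Aif1 33.2 and 4940, and the tetraspanin Cd53 127 and 8707. Of the pericyte and interstitial markers 4 of 12 were lower, 0 higher and 8 did not pass (median -0.83), against 15.7% of all genes called lower. Those that did not pass included the mural cell genes Notch3 (0.59), Acta2 (0.33) and Myh11 (0.11). Col3a1, a collagen, differed by -2.83, Rgs5 by -1.87 and the receptor Pdgfrb by -1.84. Pdgfrb and Des lost their calls without any 1 of 5 arrays, IMCD replicate 3 being the exception (adjusted p = 0.0567 to 0.0985). Of 6 urothelium markers 1 was lower, Trim29 (-2.70), 0 were higher and 5 did not pass (median -0.35), near the share of all genes called lower. In IMCD 4 of these 6 lay at or under the highest trp control, against 1 in nonIMCD, so most of them cannot show a usable difference.

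Among the other proteins that pass urea or water, the aquaglyceroporin Aqp3 of the basolateral membrane was higher in IMCD by 1.21 ± 0.16 (SE, limma adjusted p = 0.00484). The aquaglyceroporins Aqp7 (-0.51, adjusted p = 0.166 by limma) and Aqp9 (-2.34, adjusted p = 0.0539 by limma) did not pass, and Aqp9 was at 46.6 in IMCD, under the highest trp control. Aqp9 passed without IMCD replicate 1 (-2.86, adjusted p = 0.043) or IMCD replicate 3 (-1.63, adjusted p = 0.0466), and also with a pseudocount of 64 or an intensity trend. The list of 3 aquaglyceroporins thus had 1 higher, 0 lower and a median of -0.51, against 10.0% of all genes called higher and 15.7% lower. Of the collecting duct water channels Aqp4 was higher (1.17 ± 0.18, SE, limma adjusted p = 0.00762), and Aqp2 was not called (0.29, adjusted p = 0.261 by limma) except with 2 other scalings: it passed at 0.58 when arrays were centred on their medians (adjusted p = 0.0403) and at 0.45 after quantile normalization (adjusted p = 0.0406). Aqp2 and the brightest Slc14a2 probe set therefore had similar small values, 0.29 and 0.33. Both averaged above 14 on the log2 scale. Of the 385 tested probe sets that bright, 16.4% were called higher and 16.6% lower, with differences from -4.08 to 2.40. The part of signal level in the 2 small values was not tested.

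Vasopressin acts on UT-A through its V2 receptor and cAMP. The list of vasopressin and cAMP signaling genes also included the V1a receptor. Of its 15 genes 2 were higher, 3 lower and 10 did not pass (median 0.27), near the shares over all genes (10.0% higher, 15.7% lower). The V2 receptor Avpr2 was 4.05-fold higher in IMCD (2.02 ± 0.12, SE, limma adjusted p = 0.000493), whereas the V1a receptor Avpr1a was 8.76-fold lower (-3.13) and the phosphodiesterase Pde4d 3.92-fold lower (-1.97). The adenylyl cyclase Adcy6 (0.48, adjusted p = 0.105 by limma) and the cAMP-activated exchange factor Rapgef3 (0.49, adjusted p = 0.115 by limma) did not pass. Prkar1a (0.56, adjusted p = 0.019 by limma) lost its call without any 1 of 5 arrays, nonIMCD replicate 2 being the exception (0.0508 to 0.0629), and Adcy5, at 45.8 in IMCD under the highest trp control (adjusted p = 0.0417), without any 1 of 5, IMCD replicate 2 being the exception (0.0641 to 0.107).

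Of 12 genes linked to phosphorylation, glycosylation, trafficking and turnover of the transporters, 2 were higher, 3 lower and 7 did not pass (median -0.30), against 10.0% and 15.7% of all genes. Cav1 was the other higher gene besides Lgals3, and its call was lost in 5 of the 6 fits with 1 array left out, as given above. The lectin Lgals3 was 3.06-fold higher in IMCD (1.61), and the glycosyltransferases St6gal1 (-1.71) and Mgat1 (-0.82) were lower. The third lower gene, Prkcd, lost its call without IMCD replicate 1 or 2 or nonIMCD replicate 1 or 2 (adjusted p = 0.0676 to 0.0767 by limma).

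Tonicity and organic osmolyte genes divided, with 2 of 7 higher, 3 lower and 2 not past the threshold (median -0.17), against 10.0% and 15.7% of all genes. Nfat5, the tonicity-responsive transcription factor, was 2.20-fold lower in IMCD (-1.14 ± 0.11, SE, limma adjusted p = 0.00181), and the taurine transporter Slc6a6 7.45-fold lower (-2.90). Pnpla6 was higher (0.68, adjusted p = 0.0219), but lost its call without IMCD replicate 1 or 2 or nonIMCD replicate 2 or 3 (adjusted p = 0.0581 to 0.0773 by limma). Hspa4l (0.61) lost its call without IMCD replicate 1 or 2 or nonIMCD replicate 1 (0.0549 to 0.0631), and the lower gene Gpcpd1 (-0.58) without any 1 of the 6 arrays (0.066 to 0.101). Of 10 genes of urea and arginine metabolism 1 was higher, 1 lower and 8 did not pass (median 0.22), no more than the 10.0% and 15.7% of all genes. The arginase Arg2, which releases urea from arginine, was 4.46-fold higher in IMCD (2.16), and the carbamoyl phosphate synthetase Cps1 8.12-fold lower (-3.02).

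The genes whose centred log2 values lay nearest to each member over the 6 arrays were listed among 9520 genes whose log2 values averaged over 8. For Slc14a1 in 1386679_at these were Epha4, an ephrin receptor, Fxyd5, the retinoic acid hydroxylase Cyp26b1, the semaphorin Sema3g and Tmtc1, at root mean square distances of 0.08 to 0.23 on the log2 scale. For 1369857_a_at they were the proliferation marker Mki67, Islr, the endothelial receptor thrombomodulin (Thbd), Akap12 and Lims2, at 0.24 to 0.31. For Slc14a2 in 1370494_at the nearest were Clca1, Fbxo30, Serpinb1a, Dcaf12l1 and Sp4 (0.08 to 0.16), and in 1371205_at Slfn2, Blnk, Slc45a3, Mgst2 and Znfx1 (0.10 to 0.12). In 1398312_s_at they were Spata13, Gspt1, Ipmk, Fam89a and Hoxb4 (0.05 to 0.07), and in 1387550_a_at the proton pump subunit Atp6v0e1, Ube2l3, Nsmce1, Tars1 and Arpp19 (0.02 to 0.05). The 30 genes were all different. Pearson's r to the member ranged from 0.971 to 0.999 over 6 arrays, a description that mostly restates the separation of 2 fractions.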

How the data were processed

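The authors hybridised biotin-labelled cRNA from about 3 µg of total RNA to each Affymetrix rat expression array, per the labels' protocols. Each array came with linear-scale intensities deposited per probe set, with the same 2% trimmed mean on every array. No source used here names the software or its settings. The 6 arrays were grouped by title. Control probe sets (57) were left out and 31042 were tested. Symbols came from the platform annotation of the value table, updated through RefSeq (GRCr8) identifiers: 20826 probe sets had 1 symbol, 436 had several, 20758 single symbols matched by identifier, and 0 changed. Promoter windows came from RefSeq.

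Intensities were analysed as log2(value + 16), which understates differences of dim signals, with limma 3.58.1 in R 4.3.3 (lmFit, eBayes, two-sided, no covariate), and p-values were adjusted by Benjamini-Hochberg over all tested probe sets. The threshold was an adjusted p under 0.05. Pairs of probe sets sharing 1 symbol (9597) were fitted likewise. The code of the fits was also run on simulated data with independent noise for each probe set. That simulation does not reproduce all features of these arrays, and no result here rests on it. Lists use the brightest probe set (by mean log2 value) of each of 14217 genes. The number of arrays limits the precision. Named genes were all members, the 5 genes nearest to each called or brightest member, up to 3 called genes per list with the largest difference, and all listed aquaporins. Other list genes were named after their values were seen. The members, the 14 gene lists and the motifs were chosen with earlier results of these data known. The alternatives were pseudocounts of 1 and 64, median centring, quantile normalization, leaving out dim probe sets, an intensity trend, a block for the replicate number and leaving out each array. Figures were drawn with matplotlib 3.10.9.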

Additional observations from a re-analysis of the deposited data

How the results depend on the processing

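The 5 called member differences kept direction and call under all 13 alternatives. Of the other 2, 1387550_a_at passed under median centring (0.62, adjusted p = 0.0299), and 1371204_at turned to 0.041 there and ranged from -0.73 to 0.56 with 1 array left out. With 1 array left out, 1371204_at over 1387550_a_at ranged from -1.02 to 0.25 and 1370494_at over 1371205_at from -0.049 to 0.22. Quantile normalization gave -0.0504 for the latter. Under a pseudocount of 64, 3 pairs passed: 1369857_a_at over 1386679_at (1.76), 1370494_at over 1387550_a_at (1.22) and 1371205_at over 1387550_a_at (1.15). They also passed with dim probe sets left out (1.72, 1.23 and 1.17). The cause was not tested. Over all genes, 76 pairs passed, against 25 and 499 with pseudocounts of 1 and 64, 407 without dim probe sets and 0 to 6 with 1 array left out. Median centring gave 5389 higher and 2652 lower probe sets (67.0% higher, against 39.0% as deposited and 52.1% after quantile normalization) and 28 higher list genes, against 18. With 1 array left out 1537 to 2248 were higher and 2647 to 3221 lower. Of 364 counts for single lists under alternatives, 44 moved by more than 1.5 times.

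The design text gives 3 pairs without saying which arrays form them. Same-numbered arrays deviated from their fraction means with correlations of 0.040, 0.035 and 0.061, each the highest for its array. The other pairings gave -0.0363 to -0.000418. Centring on a mean of 3 arrays makes the correlations of each array nearly cancel, so 1 must come out highest. That alone does not make it the same-numbered array each time. The values are small and the pairing was not tested, so which arrays form the pairs stays unsettled. With the replicate block the 5 member calls remained (adjusted p up to 0.0413), higher and lower probe sets numbered 1831 and 2993, and limma passed 0 pairs, with 1841 at an unadjusted p under 0.05. The number of arrays limits what can be resolved, and signals near the trp control carry no usable difference.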
